A study of Mus musculus with 6 samples.

Results

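The tissue inhibitors of metalloproteinases and the membrane-anchored inhibitor Reck were followed in mouse embryonic fibroblasts given p27. The 5 genes, Timp1, Timp2, Timp3, Timp4 and Reck, were taken by gene symbol from a count table of 24062 symbols. The family was chosen by the rise of Timp2 in the p27 cells, so the differences of its members between the groups are given as descriptions. Where a fit called members in that comparison, their count is printed beside the share of all genes called, and nothing is read from it. All 5 were listed, and 4 passed the filter on low counts. Timp4 did not.

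Messenger RNA was sequenced from fibroblasts of C57BL/6 embryos, which are primary connective tissue cells grown in culture. In the p27OE group the cells had received p27, a brake on cyclin-dependent kinases that Cdkn1b encodes, by lentivirus, and they were set against a group labelled EV control. Both groups held 3 libraries, all at day 10, and no allele or drug is named for either. The EV control titles carry a dataset number that the p27OE titles lack. This mark goes fully with the group, so any difference it stands for cannot be told apart from that of p27. The series text calls the cells non-senescent, whereas the p27OE titles and the treatment protocol call them senescent. The labels do not say whether the 3 libraries of a group came from separate embryos, cultures or transductions, and p-values therefore measure only the spread between these libraries.

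The 6 libraries held 39183624 to 61219345 counts. Cdkn1b was at 167, 232 and 337 CPM (a count scaled to the size of its library) in p27OE 1, 2 and 3, against 43.9, 31.5 and 32.3 CPM in EV control 1, 2 and 3, so the targeted transcript was higher in every p27OE library. The libraries differed in transcripts of the Y chromosome: summed over Ddx3y, Eif2s3y, Kdm5d and Uty they were at 1.95, 57.1 and 137 CPM in p27OE 1, 2 and 3, against 0.125, 126 and 124 CPM in EV control 1, 2 and 3. Each group thus had 1 library of low Y-linked level, the one numbered 1, and p27OE 2 lay between. All 10 fibroblast markers, among them Col1a1 and Pdgfrb, were above 1 CPM in every library. The summed level of 15 macrophage markers ran from 21.2 to 37.7 CPM in p27OE and from 19.4 to 103 CPM in EV control, with EV control 1 at the top, and none of the 15 was at 0 in all libraries. The 7 endothelial markers summed to 5.41 to 7.29 CPM in p27OE and to 3.8 to 4.81 CPM in EV control. The 5 neural markers summed to 93.4 to 99.4 CPM in p27OE and to 82.2 to 92.3 CPM in EV control. Both sums were higher in every p27OE library, a pattern that 16.8% of single tested genes showed. Above 1 CPM in every library were 0 of the endothelial and 2 of the neural markers. Of the markers of each list, 0 were called (edgeR, adjusted p under 0.05), beside 2.61% of all tested genes. The 6 epithelial markers overlapped, at 3.90 to 8.15 CPM in p27OE and 1.95 to 4.48 CPM in EV control, and the 5 skeletal muscle markers summed to at most 0.817 CPM in p27OE and 0.325 CPM in EV control. Cldn5, an endothelial marker, and Ckm, a muscle marker, had no count in any library. The part of such cells in the levels of the inhibitors was not tested.

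TIMPs are small secreted proteins that fit into the active site of matrix metalloproteinases (MMPs) and block it, and the balance between inhibitor and protease sets how fast connective tissue is broken down. Timp2 has a second, opposite task: it links the membrane protease Mmp14 to the inactive form of the gelatinase Mmp2, so that a free Mmp14 molecule can cut and activate it. Timp3 stays bound to the matrix and also blocks proteases of the ADAM and ADAMTS families, which shed proteins from the cell surface and cleave proteoglycans. Reck is anchored in the membrane, blocks several MMPs and serves as a co-receptor for Wnt7 ligands together with the receptor Adgra2. Fibroblasts are a main source of these inhibitors in connective tissue.

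The genes lie on different chromosomes (GRCm38, GENCODE M21): Timp2 on chromosome 11 at 118301069 to 118355740, Timp3 on chromosome 10 at 86300372 to 86349506, Reck on chromosome 4 at 43875530 to 43944806, Timp1 on chromosome X at 20870166 to 20874735 and Timp4 on chromosome 6 at 115241892 to 115252205. Timp1, Timp3 and Timp4 each sit inside a synapsin gene on the other strand, Syn1, Syn3 and Syn2. In the annotation the exons of Timp1 share 0 bases with those of Syn1, those of Timp3 share 1733 bases with Syn3 and those of Timp4 share 90 bases with Syn2. Without a stated strand setting, reads from shared bases cannot be assigned to one gene of a pair. Syn3 had 0.801, 0.656 and 0.457 CPM in p27OE 1, 2 and 3, and 0.825, 0.380 and 0.329 CPM in EV control 1, 2 and 3, which is small beside the level of Timp3. These values do not show whether reads from the shared bases were left out of the count of Timp3. If they were, its level per length is understated, which was not tested.

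The stretches before the RefSeq start sites of Timp2, Timp3, Reck and Timp1 are shown (GRCm38.p6, 5′ to 3′ on the strand of the gene). Only bases outside the exons that RefSeq or GENCODE annotate for the gene are printed, which leaves 47 of 250 bases for Timp2. The other 203 bases of that window lie in annotated exon, as do 40 bases for Timp3 and 9 for Reck. The printed Timp2 stretch lies within the GENCODE bounds of the gene, so it is not upstream of every annotated start. Capitals mark GC boxes (GGGCGG) and cell cycle homology regions (TTTGAA), on either strand.
Timp2, chr11:118355507-118355553, minus strand: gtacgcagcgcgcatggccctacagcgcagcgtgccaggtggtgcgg
Timp3, chr10:86300162-86300371, plus strand: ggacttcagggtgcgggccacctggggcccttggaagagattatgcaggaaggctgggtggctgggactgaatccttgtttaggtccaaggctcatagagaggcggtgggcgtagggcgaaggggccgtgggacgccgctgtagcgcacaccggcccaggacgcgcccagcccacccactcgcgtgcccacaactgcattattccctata
Reck, chr4:43875280-43875520, plus strand: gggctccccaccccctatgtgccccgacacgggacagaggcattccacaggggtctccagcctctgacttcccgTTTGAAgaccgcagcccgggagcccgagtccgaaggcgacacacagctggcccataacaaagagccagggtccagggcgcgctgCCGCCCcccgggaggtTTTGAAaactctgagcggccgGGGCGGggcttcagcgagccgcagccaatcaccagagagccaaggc
Timp1, chrX:20869916-20870165, plus strand: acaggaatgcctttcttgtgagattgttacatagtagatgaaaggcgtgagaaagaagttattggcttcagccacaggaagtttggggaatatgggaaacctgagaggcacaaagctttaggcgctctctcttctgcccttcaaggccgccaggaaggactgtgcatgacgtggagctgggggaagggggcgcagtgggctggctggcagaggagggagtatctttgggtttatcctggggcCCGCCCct
Over the full 250 bases before the start, the window of Reck held 2 GC boxes and those of Timp1, Timp2 and Timp3 held 1 each. The boxes of Timp2 and Timp3 did not lie wholly in the printed stretches. A GC box was found in 33.0% of 32536 such windows. The Reck window also held 2 cell cycle homology regions, a motif found in 15.8% of windows, and the other 3 windows held 0. None of the 4 held an AP-1 motif (TGANTCA, in 6.73% of windows) or a TATA box (TATAAA, in 12.3%). The windows of Timp2, Timp3 and Reck were 68.0%, 65.6% and 68.4% G and C, and that of Timp1 54.4%, beside a median of 52.4% over all windows. The full windows include the exon bases given above. These matches describe the letters and not the binding of a factor. A relation of the letters to the differences between the groups was not tested.

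Timp2 was at 2210, 2071 and 2377 CPM in p27OE 1, 2 and 3, against 1044, 908 and 1005 CPM in EV control 1, 2 and 3. The groups were far apart and each was tight. The mean was 2219 ± 153 CPM in p27OE and 985.5 ± 70.0 CPM in EV control (SD, n = 3 each), a ratio of 2.25, and the log2 fold change was 1.17 ± 0.10 (SE). These are the values that prompted the choice of the family. They rest on 41741 to 102105 counts per library.

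Timp3, the matrix-bound inhibitor, was at 3408, 2857 and 2279 CPM in p27OE 1, 2 and 3, against 1558, 604 and 642 CPM in EV control 1, 2 and 3. The groups did not overlap, but within both of them library 1 was the highest. The mean was 2848 ± 565 CPM in p27OE and 935 ± 540 CPM in EV control (SD, n = 3 each), a ratio of 3.05, and the log2 fold change was 1.61 ± 0.40 (SE). Its fold change was above that of Timp2, with an SE about as wide as the gap between the 2 genes.

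Reck, the membrane-anchored inhibitor, was at 102, 66.3 and 56.3 CPM in p27OE 1, 2 and 3, against 44.6, 23.0 and 25.7 CPM in EV control 1, 2 and 3. Here too the groups did not overlap and library 1 of each group was the highest. The mean was 75.0 ± 24.3 CPM in p27OE and 31.1 ± 11.8 CPM in EV control (SD, n = 3 each), and the log2 fold change was 1.27 ± 0.32 (SE). The gap between the lowest p27OE and the highest EV control library was small beside the spread within p27OE.

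Timp1, a secreted inhibitor that also binds the surface protein Cd63, was at 409, 628 and 810 CPM in p27OE 1, 2 and 3, against 413, 852 and 739 CPM in EV control 1, 2 and 3. The groups overlapped over most of their range, and library 1 was the lowest in each. The mean was 616 ± 201 CPM in p27OE and 668 ± 228 CPM in EV control (SD, n = 3 each), with a log2 fold change of -0.12 ± 0.34 (SE).

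Timp4, an inhibitor known from heart and fat, was almost unread. It had 11, 16 and 0 counts in p27OE 1, 2 and 3, against 2, 8 and 2 counts in EV control 1, 2 and 3. The empty library, p27OE 3, allows up to 0.0721 CPM, which is 3 counts, counting error only. No fold change is given for Timp4, since several of its libraries lay at or under that floor.

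**Figure D1:**
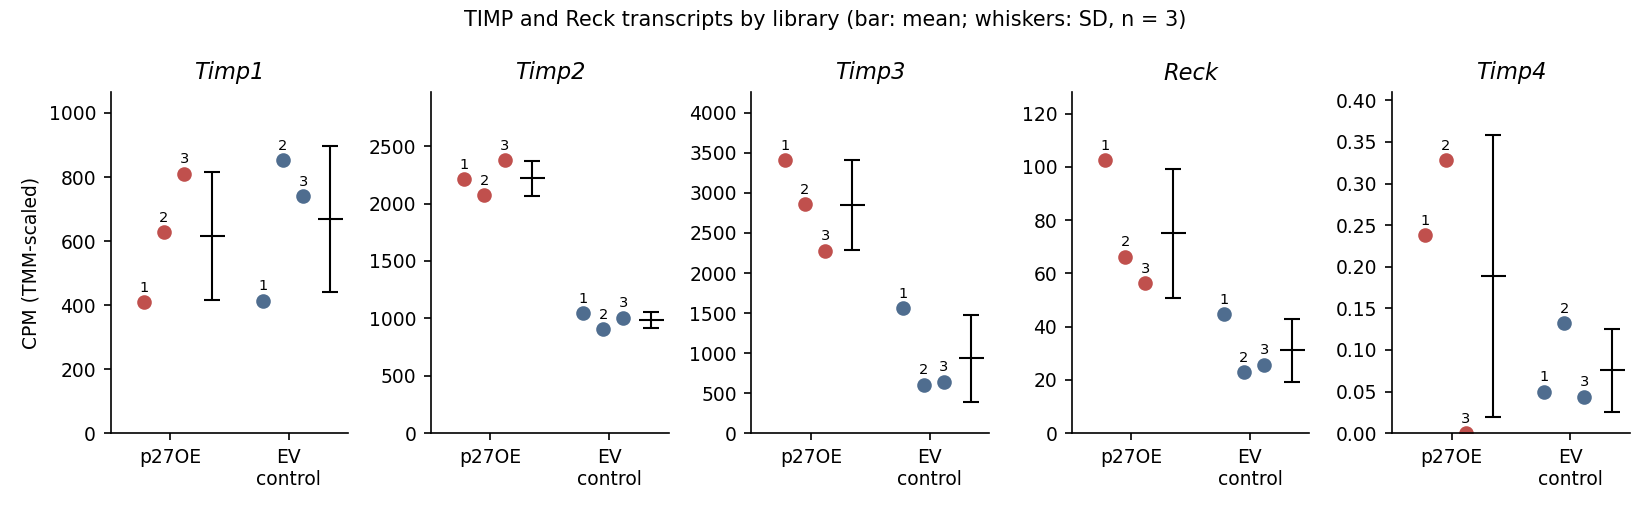
CPM of the 5 genes in each library (y axes, linear from 0; points numbered by library; p27OE left, EV control right; bars and whiskers, mean and SD, n = 3). Timp2, Timp3 and Reck were higher in all 3 p27OE libraries, Timp1 overlapped between the groups, and Timp4 stayed under 0.35 CPM.

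In bulk RNA, fewer cells of a type and less RNA per cell cannot be told apart, and this holds for each value above. Of the 5 genes, 1 (Timp2) was called by edgeR's quasi-likelihood test at an adjusted p under 0.05 with no term beside the group, where 2.61% of all 13990 tested genes were called, 1.77% higher and 0.843% lower. Timp2, Timp3 and Reck had every p27OE library above every EV control library, a pattern shown by 16.8% of tested genes. Nothing is read from these counts, since the comparison itself chose the family. The count of called members was 0 without any one of p27OE 1, p27OE 2, p27OE 3, EV control 2 or EV control 3, where 0.00706%, 0.00705%, 0.014%, 0.00701% and 0.00701% of all genes were called. It was 3 (Timp2, Timp3 and Reck) without EV control 1, where 12.9% of all genes were called. DESeq2, which called 16.6% of all genes, also called these 3, as did edgeR with the replicate number as a block, which called 17.2%. Limma-voom called Timp2 alone, with 3.0% of all genes.

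The fold changes themselves moved less than the calls. Over 16 other settings Timp2 stayed between 1.11 and 1.20 on the log2 scale. Timp3 ran from 1.37 to 2.18 and Reck from 0.96 to 1.61, while Timp1 ran from -0.39 to 0.09 and so changed sign. Timp3 and Reck were at their highest, and Timp1 at its lowest, without EV control 1, where Timp2 was at 1.20. That library stood apart in macrophage markers and was also the only EV control library of low Y-linked level. These traits cannot be told apart in a single library, and the part of either in the values was not tested.

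**Figure D2:**
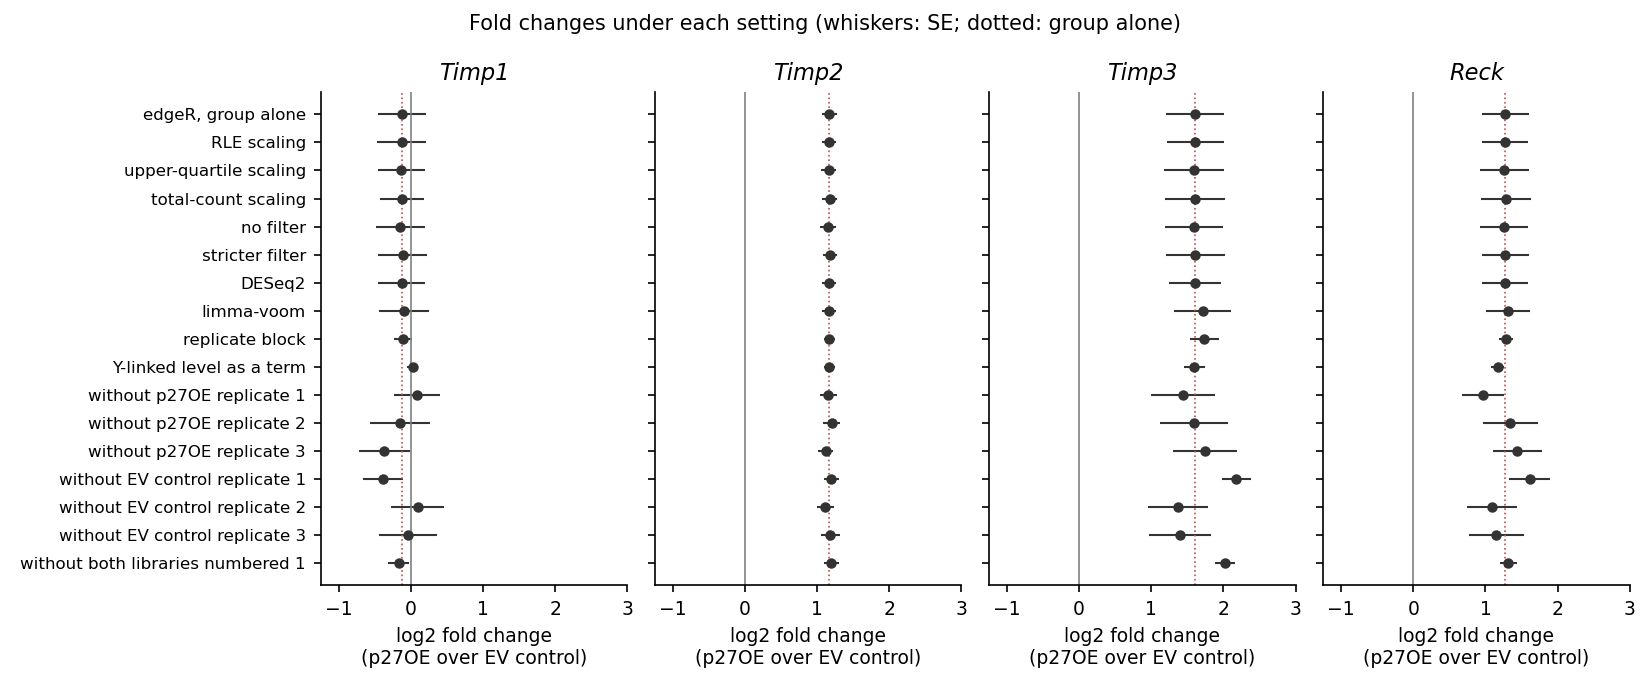
Log2 fold change (x axes; p27OE over EV control) of Timp1, Timp2, Timp3 and Reck under 17 settings (rows; points with SE whiskers; the dotted line marks the fit with the group alone). Timp2 stayed between 1.11 and 1.20 while Timp3 moved between 1.37 and 2.18 and Timp1 lay on both sides of 0.

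The members differed in how they varied between libraries of the same group. The rise of Timp2 prompted the choice, and a test weighs such a rise against this spread. The low spread of Timp2 is therefore not independent of the choice. The spread of Timp2 within groups was 0.10 on the log2 scale (pooled SD), below the median of 0.14 over the 10680 genes whose log2 CPM averaged 2 or more, and higher than in 31.0% of them. Timp1, Timp3 and Reck had spreads of 0.53, 0.58 and 0.48, above those of 94.8%, 96.0% and 93.7% of these genes. The 3 variable genes thus stood near the top of all genes in this respect, and Timp2 did not.

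That spread followed the Y-linked level of the libraries. In an edgeR fit with group and Y-linked level as terms, added with earlier results of these data known, Timp1 was higher by 1.01 ± 0.10 (SE, log2) over the range from no Y-linked transcripts to the highest library (edgeR adjusted p = 0.000387). Timp3 fell by 1.05 ± 0.16 over the same range (edgeR adjusted p = 0.00285), and Reck fell by 0.91 ± 0.11 (edgeR adjusted p = 0.000856). Timp2 was at -0.01 ± 0.09 and did not pass (edgeR adjusted p = 0.914). The level was called for 32.1% of all tested genes, 16.4% higher with it and 15.7% lower, so 3 of the 4 tested members are to be read against that share. Timp1 is itself on chromosome X, and Xist, the transcript of the inactive X, was at 330, 164 and 0.457 CPM in p27OE 1, 2 and 3 and at 407, 5.67 and 0.680 CPM in EV control 1, 2 and 3. Xist was high where the Y-linked level was low, and the 2 cannot be told apart here. The low library of each group is the one numbered 1, while the libraries numbered 2 differed in level, at 57.1 CPM in p27OE and 126 CPM in EV control.

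Set within level, the group differences of the members were as follows, from 2 libraries at low level and 3 at high level, as values with no test. Between the low-level libraries, p27OE 1 minus EV control 1, the log2 CPM difference was 1.08 for Timp2, 1.13 for Timp3, 1.20 for Reck and -0.02 for Timp1. Between the high-level libraries, p27OE 3 minus the mean of EV control 2 and 3, it was 1.32 for Timp2, 1.87 for Timp3, 1.21 for Reck and 0.03 for Timp1. The groups of Timp2, Timp3 and Reck did not overlap, so any such split had to give these genes the same direction. Timp1 lay near 0 at both levels. The library p27OE 2, of a level between, was in neither set. In the fit with the level as a term the group difference was 1.17 ± 0.07 for Timp2, 1.60 ± 0.14 for Timp3, 1.17 ± 0.09 for Reck and 0.03 ± 0.08 for Timp1 (SE, log2). These are estimates of the comparison that chose the family.

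**Figure D3:**
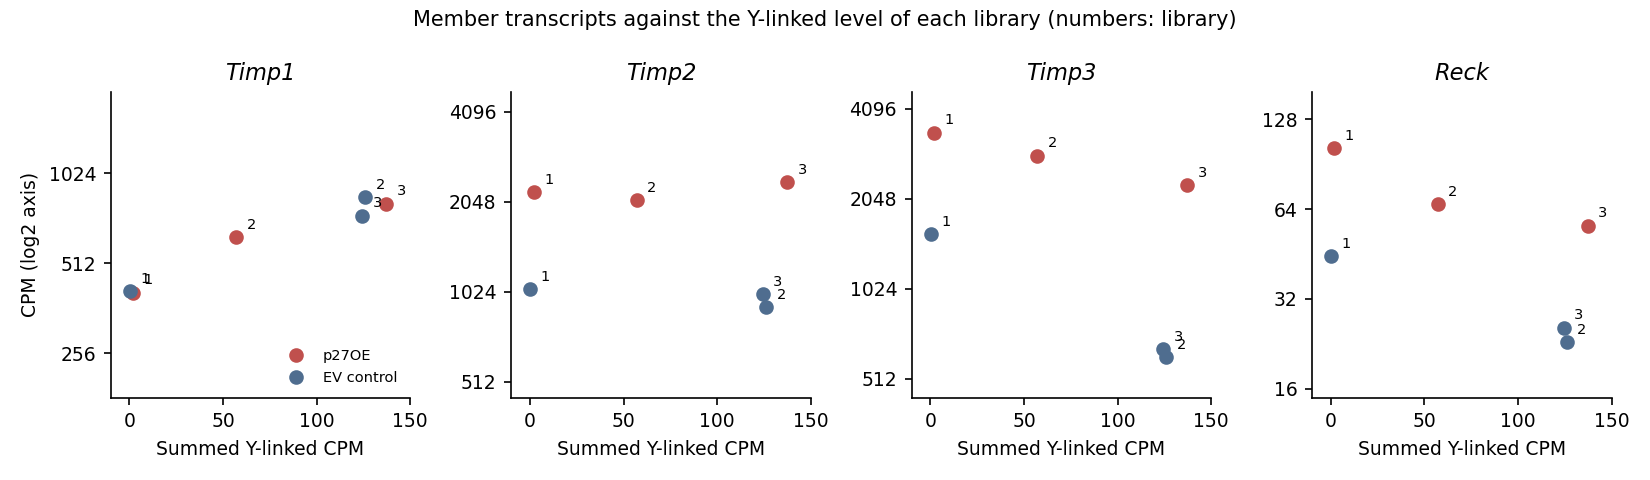
CPM of Timp1, Timp2, Timp3 and Reck (y axes, log2 scale of equal height) against the summed CPM of 4 Y-linked genes (x axes); points are libraries, numbered, with p27OE in red and EV control in blue. Timp1 climbed with the Y-linked level along 1 common line for both groups, Timp3 and Reck went down with it in each group, and Timp2 was flat.

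Levels of different genes were compared per length of exon, as TPM (counts divided by the exon length in GENCODE M21 and scaled to 1 fixed total per library). Timp1 was at 1806, 2720 and 3336 TPM in p27OE 1, 2 and 3, against 1809, 3478 and 3038 TPM in EV control 1, 2 and 3. Timp2 was at 2226, 2045 and 2231 TPM in p27OE, against 1042, 844 and 942 TPM in EV control, in the same order of libraries. Timp3 was at 1643, 1350 and 1023 TPM in p27OE, against 744, 269 and 288 TPM in EV control. Reck was far below, at 60.2 ± 21.4 TPM in p27OE and 24.4 ± 10.3 TPM in EV control (SD, n = 3 each). In EV control the order was Timp1, Timp2, Timp3 and Reck in every library. In p27OE, Timp1 and Timp2 overlapped, with Timp2 on top in p27OE 1 and Timp1 in p27OE 2 and 3, and Timp3 lay below Timp2 in all 3. The order of Timp2 and Timp3 holds for the union of all exons as length. With the longest transcript as length Timp3 lay above Timp2 in p27OE 1, p27OE 2 and EV control 1.

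The make-up of the TIMP transcripts differed accordingly. Timp2 made up 39.2%, 33.4% and 33.9% of the summed TIMP level in p27OE 1, 2 and 3, against 29.0%, 18.4% and 22.1% in EV control 1, 2 and 3. Timp1 made up 42.3 ± 9.58% in p27OE and 65.8 ± 13.6% in EV control (SD, n = 3 each). Timp3 made up 22.2 ± 6.71% in p27OE and 11.1 ± 8.32% in EV control. The shares of Timp2 did not overlap between the groups, whereas those of Timp1 met, at 50.6% in p27OE 3 and 50.3% in EV control 1. By counts not divided by length the Timp2 share was 39.1 ± 3.78% in p27OE and 38.4 ± 3.75% in EV control, and that of Timp1 was 11.0 ± 4.03% in p27OE and 26.9 ± 11.7% in EV control (SD, n = 3 each). The summed TIMP level was 6127 ± 457 TPM in p27OE and 4151 ± 508 TPM in EV control (SD, n = 3 each), and every p27OE library lay above every EV control library. The shares and this sum hold the Timp2 values that prompted the choice of the family. Their separation between the groups is a description, and nothing is read from it.

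**Figure D4:**
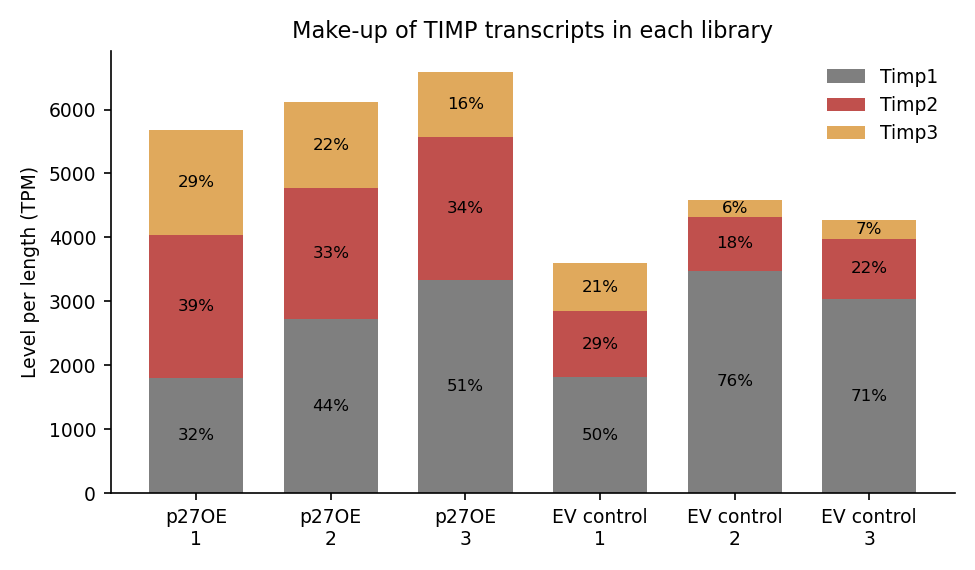
Level per length (y axis, TPM) of Timp1, Timp2 and Timp3 stacked for each library (p27OE left, EV control right), with each gene's percentage of the TIMP sum written in its bar. The p27OE bars are taller, at 5676 to 6589 TPM against 3595 to 4591 TPM in EV control, and hold larger Timp2 and Timp3 segments.

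Of 36 genes listed for metalloproteases, from the enzyme families in which targets of these inhibitors lie, 5 had no count and 27 were tested. Of these, 1 rose and 1 fell (edgeR, adjusted p under 0.05), which is 7.41%, beside 2.61% of all genes. Their median log2 fold change was 0.10, beside 0.01 for all tested genes. Neither gene of the protease pair that Timp2 links passed. Mmp2, the gelatinase, was at 470, 503 and 501 CPM in p27OE 1, 2 and 3, against 479, 433 and 453 CPM in EV control 1, 2 and 3 (log2 difference 0.11 ± 0.08, SE), with an edgeR adjusted p of 0.429. Mmp14, its activator, was at 719, 759 and 829 CPM in p27OE, against 737, 699 and 720 CPM in EV control (log2 difference 0.10 ± 0.09, SE), with an edgeR adjusted p of 0.523. The groups overlapped for both. Per length, Timp2 was 4.42 ± 0.27 times the level of Mmp14 in p27OE and 2.10 ± 0.10 times in EV control (SD, n = 3 each). Against Mmp2 it was at 3.91 ± 0.30 times in p27OE and 1.87 ± 0.05 times in EV control. These ratios use exon unions as length, 5960 bases for Mmp14 and 3896 for Timp2. The longest transcripts have 3238 and 3709 bases, so the ratio to Mmp14 would be lower with them, in both groups alike. Both ratios hold the Timp2 values that prompted the choice of the family, and nothing is read from their group difference.

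Mmp9, the other gelatinase and a target of Reck, was low, at 0.498, 0.677 and 0.529 CPM in p27OE 1, 2 and 3, against 0.875, 2.18 and 1.4 CPM in EV control 1, 2 and 3. Its groups did not overlap, which held for 33.3% of tested genes. With a log2 difference of -1.39 ± 0.40 (SE) it did not pass (edgeR, adjusted p = 0.0922). That call depends on the setting: Mmp9 passed with DESeq2 (adjusted p = 0.0249), and in edgeR with the replicate block (adjusted p = 0.0357), after leaving out EV control 1 (0.0334) or both libraries numbered 1 (0.0429), and in the fit that held the Y-linked level (0.0275). Over the other 10 settings run for it the adjusted p lay between 0.0904 and 0.294.

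Among the ADAM and ADAMTS genes, 12 of 13 were tested, and the 2 called genes of the list were both here. Adam12, a membrane protease of mesenchymal cells, fell to 146 ± 6.35 CPM in p27OE, against 225 ± 4.23 CPM in EV control (SD, n = 3), by a log2 difference of -0.63 ± 0.07 (SE), with an edgeR adjusted p of 0.029. Adam15 rose to 179 ± 16.7 CPM in p27OE, against 125 ± 5.90 CPM in EV control (SD, n = 3), by a log2 difference of 0.51 ± 0.09 (SE), with an edgeR adjusted p of 0.0489. Both calls held without EV control 1, and both were lost without any one of the other 5 libraries. Adam15 also lost its call with RLE scaling or no filter on low counts, where 2.34% and 1.74% of all genes were called. The main targets of Timp3 did not pass. Adam17, which sheds tumour necrosis factor, was at 72.3 ± 4.17 CPM in p27OE and 72.9 ± 5.40 CPM in EV control (SD, n = 3 each), a log2 difference of -0.01 ± 0.08 (SE). Adam10 was at 0.10 ± 0.08 and the aggrecan-cleaving Adamts5 at 0.42 ± 0.31 (log2 fold change, SE). Per length of the exon union, Timp3 stood at 34.4 ± 4.89 times Adam17 in p27OE and at 11.0 ± 5.58 times in EV control. Once the Y-linked level entered the fit 6 metalloprotease genes rose and 7 fell, of 27, which is 48.1%, beside 34.0% of all tested genes, 18.0% higher and 16.0% lower.

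Of 13 genes listed as binding partners, 11 were tested and 0 were called by edgeR. At an unadjusted p under 0.05 there were 4 (36.4%), beside 26.0% of all tested genes. DESeq2 called 3 (27.3%), beside 16.6% of all genes, and limma-voom 0, beside 3.0%. Lrp1, the receptor that takes up TIMPs and their complexes with proteases, was at 1147, 1007 and 1393 CPM in p27OE 1, 2 and 3, against 998.6, 527 and 619 CPM in EV control 1, 2 and 3. Its groups nearly met, at p27OE 2 and EV control 1, and its log2 difference of 0.73 ± 0.26 (SE) did not pass (edgeR, adjusted p = 0.142). Adgra2, listed under its older symbol Gpr124, pointed the other way from Reck, its partner in Wnt7 signalling. It was at 170, 199 and 215 CPM in p27OE, against 265, 257 and 278 CPM in EV control, a log2 difference of -0.45 ± 0.10 (SE) that did not pass (edgeR, adjusted p = 0.0669). The ligand genes Wnt7a and Wnt7b were too low to be tested. Lrp5, a Wnt co-receptor, was at 0.25 ± 0.07 (log2 fold change, SE). Lrp1 and Adgra2 both passed with DESeq2, with the replicate block, after leaving out EV control 1 or both libraries numbered 1, and in the fit that held the Y-linked level, with adjusted p between 0.00218 and 0.0489. Once the Y-linked level entered the fit 3 partner genes rose and 1 fell, which is 36.4%, near the 34.0% of all tested genes.

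Of 21 other extracellular protease inhibitor genes, 19 were tested and 0 were called by edgeR. At an unadjusted p under 0.05 there were 5 (26.3%), near the 26.0% of all tested genes. DESeq2 called 5, again 26.3%, beside 16.6% of all genes, and limma-voom 0, beside 3.0%. Their median log2 fold change was 0.22. The cystatin genes Cst3 and Cst6, whose products block cysteine proteases, had the smallest p together with Serpinh1, a collagen chaperone of the serpin fold. Cst3 was at 255 ± 22.7 CPM in p27OE and 202 ± 4.90 CPM in EV control, Cst6 at 1.43 ± 0.42 CPM in p27OE and 0.488 ± 0.034 CPM in EV control (SD, n = 3 each). Serpinh1 was at 2685 ± 114 CPM in p27OE and 3411 ± 80.6 CPM in EV control (SD, n = 3 each). None of the 3 passed, with adjusted p of 0.0758, 0.0554 and 0.0719 (edgeR), and all 3 passed with DESeq2, with the replicate block and in the fit that held the Y-linked level. Once the Y-linked level entered the fit 6 of these inhibitor genes rose and 2 fell, which is 42.1%, beside 34.0% of all tested genes.

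**Figure D5:**
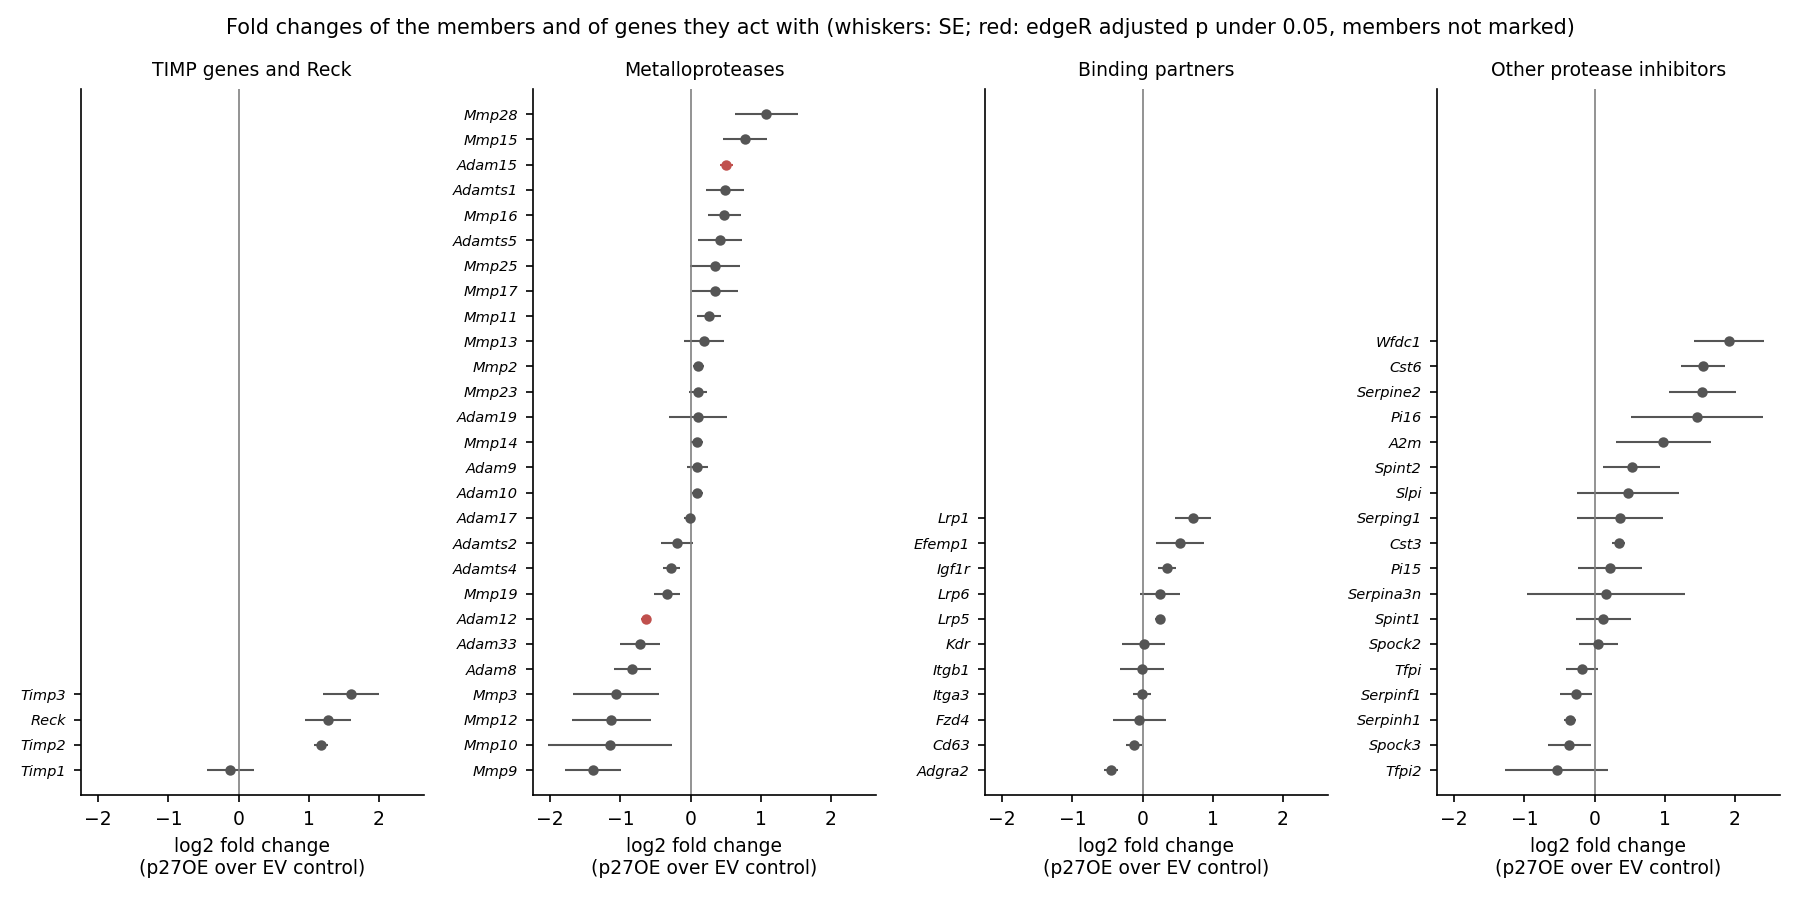
Log2 fold change with SE (x axes; p27OE over EV control) of the 4 tested members and of tested metalloprotease, partner and other inhibitor genes (1 inhibitor gene is not drawn), sorted by value within each panel; red marks genes called by edgeR outside the family. Timp3, Reck and Timp2 lie at 1.61, 1.27 and 1.17, while only Adam15 and Adam12 are marked among the other genes.

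The genes whose pattern was most like that of a member were found by the root mean square difference between log2 CPM values over all 6 libraries, each gene centred on its own mean, among 10374 candidates. The group difference is part of this measure. Cdh13, which encodes a cadherin held by a lipid anchor, was nearest to Timp2, at 0.076 log2 units, with 51.3, 46.3 and 54.1 CPM in p27OE 1, 2 and 3, against 22.0, 21.3 and 20.3 CPM in EV control 1, 2 and 3. Dcxr, a xylulose reductase, and the ephrin gene Efna3 followed at 0.11 and 0.12. Near to Timp3 were Palmd and Aqp5, at 0.14 and 0.15. Nearest to Reck were Mettl7a1, Scrn1 and Thbd, at 0.089, 0.096 and 0.12, where Mettl7a1 has close copies that can make its count uncertain and Thbd encodes thrombomodulin.

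Among the members, Reck and Timp3 were the most alike, at 0.29 log2 units, which made Reck the 11th nearest of 10374 genes to Timp3, and Timp3 the 52nd nearest to Reck. Timp2 lay at 0.38 from Reck and 0.53 from Timp3. Timp1 stood at 0.79 to 1.28 from the other 3, near the far end of all candidates, with ranks of 8900, 9733 and 9852 among the genes nearest to Timp2, Timp3 and Reck.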

How the data were processed

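The authors deposited whole-number read counts per gene symbol for 6 libraries, not normalised; featureCounts 1.4.6 (with Subread), Bowtie2 2.2.6, TopHat2 2.0.14 and the mm10 genome are listed, per the submitters' processing notes. Per the labels' protocols, RNA came from columns (RNeasy Micro) and libraries from the TruSeq RNA kit v2. Of the annotation, strand setting and filters, each was not given in the sources used here. Columns were matched to samples by title, and no 2 libraries of a group agreed within sampling noise (chi-square per gene of at least 6.51).

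The members and gene lists were chosen with earlier results of these data known. Counts of all genes were filtered with filterByExpr, TMM-scaled and passed to edgeR 4.0.16 (two-sided glmQLFTest after a robust glmQLFit) in R 4.3.3, with only the group in the model, Benjamini-Hochberg adjustment over 13990 genes and a threshold of 0.05. SE is the log2 fold change over the root of F. CPM used TMM-scaled library sizes, and log2 CPM a prior count of 2. TPM used GENCODE M21 exon unions (22750 symbols, 97.3% of counts). The genes named were the members, Cdkn1b, 8 fixed genes, all called genes and the 3 of smallest p in each list, the overlapping genes, and the 3 of most like pattern to Timp2, Timp3 and Reck. Of the genes so named, 1 is not reported here, nor is 1 gene of the inhibitor list by name. Cep295nl, inside a Timp2 intron, was not analysed here. Alternatives were total-count, RLE and upper-quartile scaling, a stricter filter or none, DESeq2 1.42.0, limma-voom (limma 3.58.1), a replicate block, the Y-linked level as a term, each library left out and both libraries numbered 1 left out. Scripts were tested on simulated counts.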

Additional observations from a re-analysis of the deposited data

How the results depend on the processing

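Genes called, called members, and called metalloprotease, partner and other inhibitor genes numbered 365, 1, 2, 0 and 0 with edgeR and the group alone. They were 2321, 3, 4, 3 and 5 with DESeq2, 4761, 3, 13, 4 and 8 once the Y-linked level entered the fit, and 2334, 3, 5, 3 and 2 when both libraries numbered 1 were left out. The genes called were 2.61% of all tested genes with the group alone, 16.6% with DESeq2 and 34.0% with the Y-linked level. Without both libraries numbered 1 the share was not computed. Nothing is read from the counts of members. Single libraries left out in turn gave 1 to 1827 genes (0.00701% to 12.9%), 0 to 3 members, 0 to 5 metalloproteases, 0 to 2 partners and 0 other inhibitors. RLE scaling and no filter each gave 1 metalloprotease, with 2.34% and 1.74% of all genes called. The stricter filter gave 1 other inhibitor (Cst6), with 497 genes called. The cause was not tested. With the replicate number as a block the counts were 2410, 3, 7, 3 and 5, with 17.2% of all tested genes called. The deviations of same-numbered libraries correlated across genes at 0.67, 0.04 and 0.50, while EV control 2 was closer to p27OE 3 (0.56). Both libraries numbered 1 were of low Y-linked level. Beyond the number the labels state no pairing, and a shared origin was not tested. The member fold changes moved by less than 1 within-group SD in each setting, and no called value of a named gene changed sign. For the 26 other named genes, 324 values kept their side of the threshold, 58 gained a call and 32 lost one.

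Shares among TIMP transcripts depend on the length used, since counts rise with length. With no division by length Timp1 held 11.0% in p27OE and 26.9% in EV control, Timp2 39.1% in p27OE and 38.4% in EV control, and Timp3 49.9% in p27OE and 34.7% in EV control, so the groups differ little in Timp2 share on that scale. With the longest transcript as length Timp2 held 31.5% and Timp3 32.2% in p27OE, so the order of these 2 genes rests on the length chosen. Depth does not limit the 4 tested members (1169 counts or more in each library), but it does limit Timp4 (at most 16).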

Other observations

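Serpine2, an inhibitor of serine proteases on the list of other inhibitors, was picked out after its values were seen, because it varied between libraries like the variable members. It was at 511, 284 and 160 CPM in p27OE 1, 2 and 3, against 165, 77.7 and 86.5 CPM in EV control 1, 2 and 3, high in library 1 of each group as Timp3 and Reck were. Its groups overlapped, with p27OE 3 under EV control 1. It did not pass with the group alone (edgeR adjusted p = 0.11). It passed with DESeq2, with the replicate block, after leaving out both libraries numbered 1 and in the fit that held the Y-linked level. Its pattern over libraries is what picked it out and was not tested.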
